A study of Mus musculus with 18 samples.

Results

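The genes described here are the nuclear-encoded subunits of the mitochondrial respiratory chain and ATP synthase. They were taken from the count table by symbol: protein-coding genes whose names start with Nduf followed by a subunit letter and digit, the Sdh genes a to d, and all names starting with Uqcr, with Cox4 to Cox8 or with Atp5. This gave 84 genes of the 53379 in the table, 37 in complex I (7 core and 30 accessory), 4 in complex II, 8 in complex III, 18 in complex IV and 17 in complex V (5 in the F1 head). The symbols also take in Ndufa4, which is now regarded as a complex IV subunit, Cox7a2l, a supercomplex factor, and Atp5s, a factor of ATP synthase that is not one of its catalytic chains.

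The libraries came from female BALB/cJ mice 6 to 8 weeks old that were lethally irradiated. The BM group then received 10000000 bone marrow cells alone, and the BMT group received the same number of marrow cells together with 1000000 T cells. All mice were sampled on day 7, so irradiation and marrow transfer were common to both groups and there was no unirradiated group. RNA was sequenced from bulk liver and from isolated intestinal epithelial cells, with 3 BM and 3 BMT libraries in each of 3 tissues (18 libraries, carrying the same 6 mouse numbers in every tissue). Nothing in the labels names the strain of the donors. The 3 mice of a group are separate animals by their numbers.

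Complex I takes electrons from NADH and complex II from succinate. Both pass them through ubiquinone to complex III, then through cytochrome c to complex IV, where oxygen is reduced. Complexes I, III and IV pump protons, and complex V, the ATP synthase, uses the returning protons to make ATP. All of these except complex II also hold subunits encoded by mitochondrial DNA. Hepatocytes and absorptive cells of the gut are both rich in mitochondria.

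The tissue labels of the gut libraries disagree with their sample codes. Those titled small intestine carry the code LI, and those titled large intestine carry the code SI. Small intestinal epithelial markers (Fabp6, Sis, Lyz1, Fabp2, Apoa4 and Lct) summed to 15691 to 20487 counts per 1000000 (CPM) in the BM libraries coded SI and to 393 to 443 CPM in those coded LI. Large intestinal markers (Car1, Aqp8, Hoxb13, Slc26a3 and Car4) summed to 11368.5 to 12392 CPM in the BM libraries coded LI and to 284 to 790 CPM in those coded SI. The markers thus run with the codes and against the titles, and the gut libraries are called SI-coded and LI-coded throughout. Hepatocyte markers summed to 107904 to 168935 CPM in liver BM and 118928 to 135104 CPM in liver BMT, overlapping ranges, and after TMM scaling 3 of the 6 were called higher in BMT and 0 lower, with log2 fold changes from -0.85 to 1.89. The libraries held 18845483 to 25610937 counts, of which 2.77% to 10.7% were on the mitochondrial chromosome.

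Markers of other cells moved with the T cell transfer and stand beside every comparison that follows. The 8 T cell markers summed to 3.21 to 6.43 CPM in liver BM and 54.3 to 55.0 CPM in liver BMT, to 3.48 to 9.32 and 146 to 222 CPM in the SI-coded libraries, and to 6.37 to 8.04 and 278 to 440 CPM in the LI-coded libraries. The 6 neutrophil markers summed to 10.4 to 16.4 CPM in liver BM and 85.4 to 355 CPM in liver BMT, and to 71.4 to 79 and 661 to 1385 CPM in the LI-coded libraries. The 5 epithelial markers (Epcam, Krt8, Krt18, Cdh1 and Vil1) summed to 10859 to 11956 CPM in SI-coded BM and 12897 to 14309 CPM in SI-coded BMT, and to 9913 to 11334 and 13400 to 16327 CPM in the LI-coded libraries. The small intestinal sum was 6157 to 11755 CPM in SI-coded BMT, below the BM libraries, but by gene 2 of its 6 markers were called higher and 2 lower. The large intestinal sum was 5979 to 9191 CPM in LI-coded BMT, also below BM, with 1 of 5 markers called higher and 3 lower. In liver the 4 erythroid markers summed to 66.5 to 94.2 CPM in BM and 7.62 to 28.8 CPM in BMT. In liver the 5 macrophage markers summed to 172 to 213 CPM in BM and 246 to 304 CPM in BMT. The macrophage sum of the LI-coded libraries was 3.14 to 4.41 CPM in BM and 19.6 to 71 CPM in BMT, and in the SI-coded libraries 3.85 to 7.01 and 4.46 to 10.4 CPM. The neutrophil markers in the SI-coded libraries summed to 0.307 to 1.86 and 4.8 to 17.1 CPM. The part of all these in the results was not tested. By the column names, 4 libraries ran on sequencing lane 1 (the third liver BM, the second liver BMT, the second SI-coded BMT and the third LI-coded BMT) and the rest on lane 2. In bulk samples such as these, fewer cells of a type and less RNA per cell cannot be told apart.

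The share of all counts that came from the 84 genes is given first, tissue by tissue. In liver it was lower in BMT: the summed level was 12646, 13225 and 13471 CPM in the BM libraries and 9901, 9164 and 10057 CPM in the BMT libraries. Every BMT liver lay below every BM liver, and the ratio of the means was 0.740. With library sizes scaled by the trimmed mean of M-values (TMM) over all 18 libraries, the same ratio was 0.857, still with no overlap. The tests of BMT against BM below used TMM factors from each tissue alone.

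In the SI-coded libraries the sum was 19950, 17286 and 17626 CPM in BM and 20463, 21237 and 20393 CPM in BMT. The BMT libraries were all above the BM libraries, with a ratio of 1.13, but the groups overlapped once TMM scaling over all 18 libraries was applied. The LI-coded sums were 21482, 23733 and 22184 CPM in BM and 18637, 21085 and 23015 CPM in BMT, with a ratio of 0.931 and overlapping groups. No test was made on these sums. Per kilobase of exon, the mean levels in liver BM were highest for Atp5b (337 CPM per kilobase), Atp5a1 (334) and Cox6a1 (331), and those in SI-coded BM for Atp5a1 (587), Atp5b (573) and Cox6b1 (544). In LI-coded BM they were highest for Cox6a1 (743), Atp5a1 (722) and Atp5b (668).

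**Figure D1:**
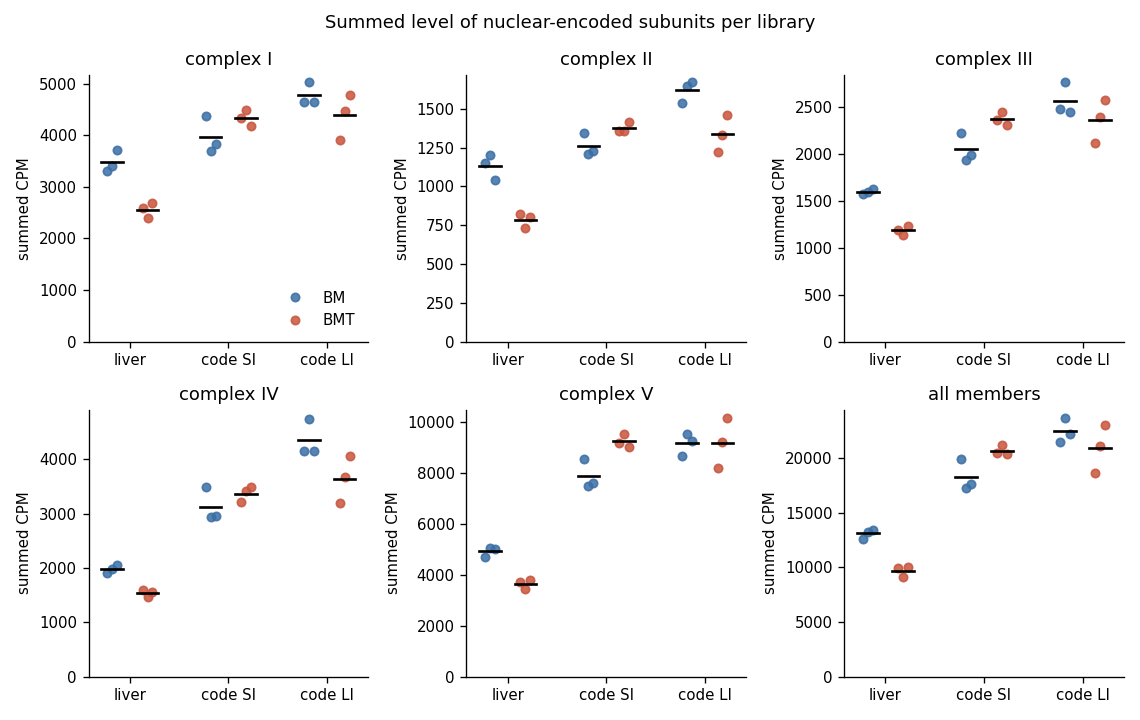
Summed CPM of the nuclear-encoded subunits of each complex, and of all 84 (last panel), in each library by tissue, with BM and BMT libraries as points and the group mean as a line. In liver the BMT points lie below the BM points in all 5 complexes, and in the LI-coded libraries the complex V points overlap.

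By complex, complex I supplied 26.5% ± 0.993 (SD, n = 3) of member counts in liver BM, 21.7% ± 0.269 in SI-coded BM and 21.3% ± 0.362 in LI-coded BM. In the LI-coded libraries the complex IV share was 19.4% ± 0.636 in BM and 17.4% ± 0.210 in BMT, without overlap, and the complex II share was 7.21% ± 0.306 and 6.40% ± 0.141, also without overlap. The complex V share there was higher in BMT, at 40.8% ± 0.870 in BM and 43.9% ± 0.183 in BMT. Complex IV went the other way in liver, with 15.1% ± 0.144 in BM and 15.9% ± 0.331 in BMT. These shares add to a whole, so a rise in one lowers the others.

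Changes of single genes were tested with edgeR's quasi-likelihood test on counts, tissue by tissue. A gene was called where its Benjamini-Hochberg adjusted p over all genes tested was under 0.05. Fold changes are log2 of BMT over BM after TMM scaling, with an approximate standard error (SE). For all edgeR results the SE was worked back from the test, as the absolute log2 value divided by the square root of its F statistic. Of the 84 members, 79 passed the filter on low counts in liver and 78 in each gut fraction. Cox7b2 and Cox8c had 0 counts in every library. Cox4i2 (the hypoxia isoform of subunit 4), Cox6a2 and Cox8b (muscle isoforms) were at or below 0.527 CPM in every library and did not pass the filter in any tissue.

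In liver most members had slightly lower values in BMT. The median log2 fold change of the 79 tested members was -0.25, against -0.02 over all 14134 genes tested, and 94.9% of the members had a fold change below 0, against 52.2% of all genes. A total of 96.2% of members lay within 0.5 of 0 on the log2 scale, against 71.5% of all genes. Single genes mostly missed the threshold: 1 member was called lower, where 3.35% of all genes were, and 0 were called higher, where 7.46% of all genes were. The unadjusted p was under 0.05 for 27 of the 79, against 3705 of all 14134 genes. DESeq2's Wald test called 8 members lower and 0 higher, against 767 and 1407 of all genes.

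The gene called in liver was Ndufa6 (ENSMUSG00000022450.5), an accessory subunit of the LYR family in the matrix arm of complex I. The gene lies at chr15:82350139-82354291 (GRCm38, minus strand). Its level was 116, 110 and 110 CPM in the BM livers and 70.8, 64.9 and 74.8 CPM in the BMT livers. All BMT livers were below all BM livers. The log2 fold change was -0.50 (SE 0.13, adjusted p = 0.0486 by edgeR's quasi-likelihood test), and the call was lost when any of 5 of the 6 libraries was left out.

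The catalytic and core subunits did not pass the test in liver. Ndufs1, the largest iron-sulphur subunit of complex I, stood at 124, 112 and 84 CPM in BM and 79, 69.4 and 77.5 CPM in BMT (log2 fold change -0.34, SE 0.20). Sdha, the flavoprotein of complex II, had 513, 494 and 395 CPM in BM and 308, 289 and 299 CPM in BMT (-0.48, SE 0.18, adjusted p = 0.145 by edgeR). Uqcrc1, a core protein of complex III, had 231, 254 and 275 CPM in BM and 176, 163 and 190 CPM in BMT (-0.34, SE 0.13). For all 3 genes every BMT liver was below every BM liver on the CPM scale, but none passed the test after TMM scaling. Sdhb, the iron-sulphur subunit of complex II, gave -0.45 (SE 0.16), and Ndufv1, the NADH-binding subunit of complex I, gave -0.20 (SE 0.13).

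In complexes IV and V the liver values were also lower in BMT. Cox4i1, the ubiquitous form of subunit 4, had 375, 361 and 406 CPM in BM and 322, 300 and 295 CPM in BMT (log2 fold change -0.13, SE 0.14). Atp5b, the catalytic beta chain of the F1 head, had 1391, 1470 and 1426 CPM in BM and 1024, 955 and 1034 CPM in BMT (-0.33, SE 0.16). By complex, the medians of the log2 fold changes in liver were -0.31 for complex I, -0.36 for II, -0.24 for III, -0.23 for IV and -0.23 for V. The 5 medians lay within a narrow range.

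The count of calls in liver depended on the scaling. With library totals in place of TMM, 24 members were called lower, against 1183 of all 14134 genes. The median of all genes moved from -0.02 to -0.20, and the share of called genes that were higher went from 69% to 40.7%. The members' median minus that of all genes was -0.23 under both scalings. A change of scaling shifts all genes nearly alike, so it could hardly alter this gap. Without the third BM liver 10 members were called lower, against 1061 of all 14519 genes, and without any other single liver 0 were. In those other fits the lower calls over all genes were 110 to 386, against 473 with every liver.

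**Figure D2:**
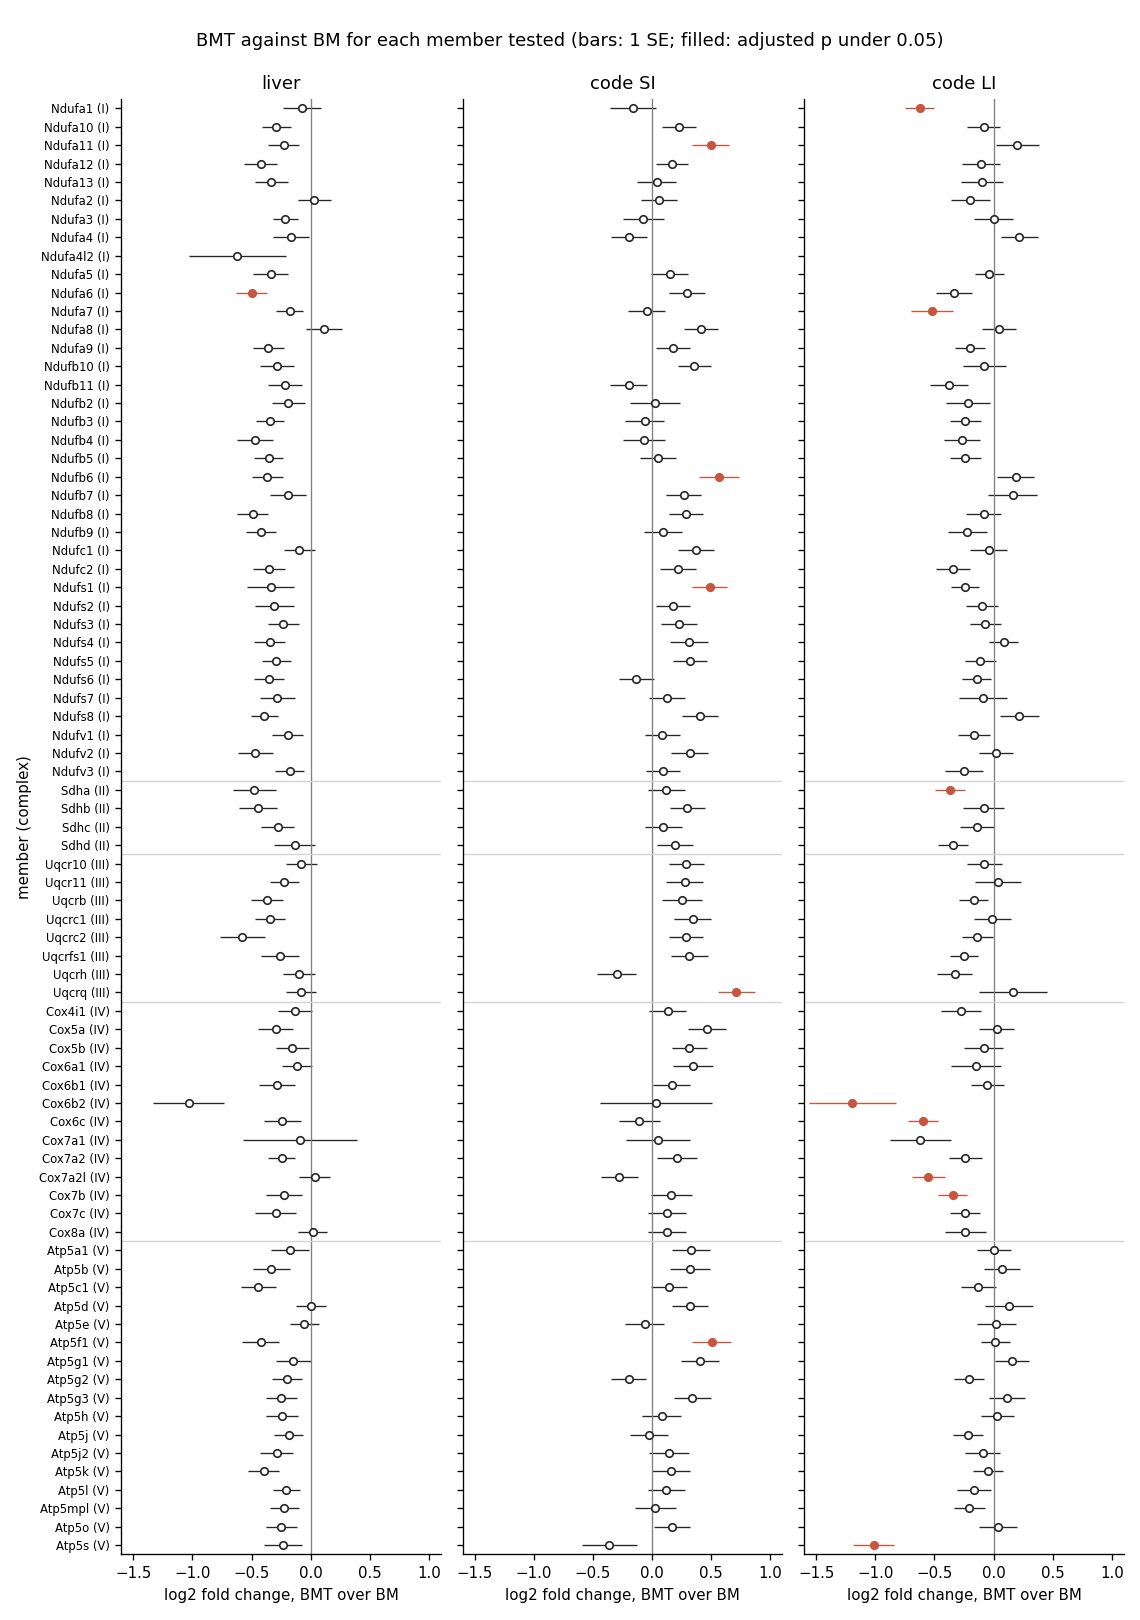
Log2 fold change (BMT over BM, TMM-scaled) of each tested member in each tissue, ordered by complex, with bars of 1 SE and filled points for called members. The medians are -0.25 in liver, 0.17 in the SI-coded and -0.12 in the LI-coded libraries, and 1, 5 and 8 points are filled.

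In the SI-coded libraries most members had slightly higher values in BMT. Of 78 tested, 5 were called higher, where 11.6% of the 14621 genes tested were, and 0 were called lower, where 11.8% were. By share, 6.41% of members were called higher, below the background. The median log2 fold change was 0.17, and 80.8% of the members were above 0, against 52.0% of all genes. In either direction 13 members had an unadjusted p under 0.05, against 5245 of all 14621 genes. DESeq2's Wald test called 5 members higher and 0 lower, against 1793 and 1729 of all genes. The 5 genes came from complexes I, III and V.

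Uqcrq (ENSMUSG00000044894.14), a small subunit of complex III that touches cytochrome b, gave the largest rise. The gene lies at chr11:53427922-53430831 (GRCm38, minus strand). It had 146, 125 and 170 CPM in the BM libraries and 218, 244 and 235 CPM in the BMT libraries. The groups were well apart, and the log2 fold change was 0.71 (SE 0.16, adjusted p = 0.0083 by edgeR). Without the second BM library its adjusted p was 0.0615, and it passed under the other 14 of 15 alternatives. Among the 15, leaving out the second BMT library and using lane L002 only were the same fit.

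Ndufs1 rose from 138, 139 and 141 CPM to 212, 165 and 190 CPM (log2 fold change 0.49, SE 0.15, adjusted p = 0.0346 by edgeR). The BM values were almost identical and the BMT values were all above them. Ndufb6, an accessory subunit of the membrane arm, rose from 48.2, 34.9 and 43.3 CPM to 64.9, 61.8 and 55.2 CPM (0.57, SE 0.17, adjusted p = 0.0328). Its exons share 39.0% of their bases with Smim27 on the opposite strand, and the strand setting of the counting is unknown, so that reads from this pair may not be separable.

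Ndufa11, an accessory subunit of the membrane arm, rose from 80.4, 62.5 and 73.8 CPM to 95.4, 112 and 89.1 CPM (log2 fold change 0.49, SE 0.16, adjusted p = 0.0456 by edgeR). Atp5f1, the b subunit of the peripheral stalk of ATP synthase, rose from 431, 360 and 363 CPM to 586, 473 and 527 CPM (0.50, SE 0.16, adjusted p = 0.0469 by edgeR). For both genes every BMT library was above every BM library. The catalytic chains had values in the same direction but missed the threshold: Atp5a1, the alpha chain, had 1881, 1794 and 1847 CPM in BM and 2272, 2257 and 2186 CPM in BMT (0.33, SE 0.16, adjusted p = 0.163).

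The next smallest adjusted p was that of Ndufa8, an accessory subunit of complex I, which was not called (0.41, SE 0.14, adjusted p = 0.0566 by edgeR). Cox5a, a nuclear-encoded subunit beside the catalytic core of complex IV, had 134, 108 and 106 CPM in BM and 151, 154 and 161 CPM in BMT (log2 fold change 0.46, SE 0.16, adjusted p = 0.0580 by edgeR). The 3 genes for the c ring of ATP synthase, Atp5g1, Atp5g2 and Atp5g3, encode the same mature peptide. Atp5g1 gave 0.41 (SE 0.16), Atp5g3 0.34 (SE 0.15) and Atp5g2 -0.20 (SE 0.15), and none of them was called in any tissue. By complex, the medians in the SI-coded libraries were 0.17 for I, 0.16 for II, 0.29 for III, 0.13 for IV and 0.14 for V.

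Without the second BM library of the SI code, 0 members were called higher, without the third BM library or the first BMT library 1 was, and 4 of the 5 calls were lost in at least 4 of the 6 leave-one-out fits. Over all genes the higher calls fell as well, from 1700 of 14621 with every library. They were 1030 of 15031 without the second BM, 1216 of 15040 without the third BM and 1344 of 15041 without the first BMT library.

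In the LI-coded libraries 8 of 78 members were called lower, where 21% of the 14880 genes tested were, and 0 were called higher, where 20.4% were. The share of members called lower was 10.3%, under the background. The median log2 fold change was -0.12 against 0.00 over all genes. In either direction 14 members had an unadjusted p under 0.05, against 7390 of all 14880 genes. DESeq2's Wald test called 9 members lower and 0 higher, against 3069 and 3189 of all genes. By complex, 4 of 13 tested members of complex IV and 1 of 17 of complex V were called, with medians of -0.24 and 0.00. The medians of complexes I, II and III were -0.10, -0.24 and -0.11.

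Atp5s (ENSMUSG00000054894.6) had the smallest adjusted p. The gene lies at chr12:69724950-69744660 (GRCm38, plus strand), and its level was 10.1, 9.97 and 9.41 CPM in BM and 4.88, 5.03 and 4.58 CPM in BMT, with no overlap. The log2 fold change was -1.02 (SE 0.17, adjusted p = 0.000921 by edgeR). Cox6c, a small subunit of complex IV at chr15:35925886-35938246, fell from 292, 358 and 345 CPM to 220, 227 and 208 CPM (-0.60, SE 0.13, adjusted p = 0.0040 by edgeR). Every BMT library was again below every BM library.

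Ndufa1, an accessory subunit of complex I at chrX:37187588-37191163, fell from 83.4, 99.4 and 94.2 CPM to 58.5, 63 and 57.1 CPM (log2 fold change -0.63, SE 0.12, adjusted p = 0.00248 by edgeR). Cox7a2l, which joins complexes III and IV into supercomplexes, fell from 226, 258 and 247 CPM to 146, 170 and 178 CPM (-0.55, SE 0.14, adjusted p = 0.0093 by edgeR). Atp5s, Cox6c, Ndufa1 and Cox7a2l were called in all 15 alternatives tried. Among these, leaving out the third BMT library and using lane L002 only were the same fit. No call of the SI-coded libraries was made in all 15.

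The other 4 calls in the LI-coded libraries were nearer the threshold. Sdha fell from 588, 573 and 619 CPM to 435, 450 and 481 CPM (log2 fold change -0.37, SE 0.13, adjusted p = 0.0390 by edgeR). Cox6b2 fell from 2.44, 1.71 and 1.91 CPM to 1.30, 0.898 and 0.429 CPM (-1.19, SE 0.37, adjusted p = 0.0244), a level of few reads per library. Ndufa7 gave -0.52 (SE 0.18, adjusted p = 0.0384) and Cox7b -0.34 (SE 0.12, adjusted p = 0.0430). The catalytic chains of complex V were near 0: Atp5b had 2634, 2931 and 2923 CPM in BM and 2593, 2891 and 3312 CPM in BMT (0.07, SE 0.15).

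Leaving out the third BMT library, which was also the only LI-coded library of sequencing lane 1, gave 21 members called lower and 1 higher. In that fit 3553 of all 15453 genes were called lower and 3667 higher. Leaving out the second BMT library gave 4 members lower, against 2623 of all 15253 genes. The summed member level of the third BMT library, 23015 CPM, was the highest of the 3 BMT libraries.

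Whether the response differed between tissues was tested as a difference of the BMT effects in a fit of all 18 libraries with the mouse as a term. Between liver and the SI-coded libraries, 11 of 79 members had a lower effect in liver, where 6.32% of the 17275 genes tested did, and 0 a higher one, where 8.67% did. That is 13.9% of members, above the background share. The median difference was -0.45 on the log2 scale against 0.01 over all genes. DESeq2's Wald test called 14 members lower and 0 higher, against 1210 and 1808 of all genes. With library totals in place of TMM, 24 members had a lower effect in liver, against 1407 of all genes. The share of called genes that were higher went from 57.8% to 45.4%.

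Of these 11, 8 belonged to complex I, and the largest difference was that of Ndufb6, at -0.93 (SE 0.23, adjusted p = 0.0144 by edgeR), with the overlap noted above. Liver levels of Ndufb6 were 35.3, 39.0 and 37.1 CPM in BM and 26.0, 22.5 and 28.0 CPM in BMT, whereas the SI-coded levels given above were higher in BMT. Atp5f1 differed by -0.91 (SE 0.23), with liver levels of 358, 358 and 310 CPM in BM and 227, 218 and 236 CPM in BMT. Uqcrc2, the other core protein of complex III, differed by -0.85 (SE 0.25), with 272, 233 and 194 CPM in liver BM and 144, 133 and 140 CPM in liver BMT. Uqcrc2 in the SI-coded libraries had 397, 399 and 360 CPM in BM and 490, 449 and 431 CPM in BMT.

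The core subunits Ndufs1 (-0.81, SE 0.24), Ndufs8 (-0.79, SE 0.22) and Ndufv2 (-0.78, SE 0.23) were also among the 11, as was Cox5a of complex IV (-0.76, SE 0.22). The other 4 were Ndufa6 (-0.78), Ndufb8 (-0.77), Ndufs4 (-0.65) and Ndufs5 (-0.61). Without the second BM mouse 0 differences were called. Each mouse serves as its own reference in this fit.

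Between liver and the LI-coded libraries 1 member, Atp5s, had a higher effect in liver (0.82, SE 0.26, adjusted p = 0.0409 by edgeR), where 10.6% of genes did, and 0 a lower one, where 8.13% did. In liver Atp5s had 8.37, 7.91 and 8.53 CPM in BM and 5.13, 6.97 and 6.65 CPM in BMT. The call was made in 5 of 13 alternatives and was lost without any single mouse. With library totals the share of called genes that were higher went from 56.7% to 40.7% in this contrast. Between the SI-coded and LI-coded libraries 0 members were called in either direction by edgeR's quasi-likelihood test or DESeq2's Wald test, where 2.4% of genes were higher and 2.51% lower. The median difference of the members was 0.34, against 0.01 over all genes.

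In the BM groups, which show the tissues without T cell transfer, subunits with tissue isoforms are described first. Differences between tissues here are log2 of one tissue over the other from the 18-library fit. BMT mice enter these contrasts only through the shared spread, scaling and filter. Leaving out a BMT mouse is therefore a weak check of them. Cox7a1, the heart and muscle isoform of subunit 7a, had 2.35, 0.955 and 1.12 CPM in liver, 37.2, 29.1 and 26.7 CPM in the SI-coded and 37.9, 41.5 and 39.5 CPM in the LI-coded BM libraries. Liver was lower by far, at -3.67 (SE 0.32, adjusted p = 6.76e-08 by edgeR) against the SI-coded and -4.08 (SE 0.32, adjusted p = 2.25e-08) against the LI-coded libraries. The SI-coded BM values were a little below the LI-coded ones, without overlap, and that difference was not called (-0.41, SE 0.26, adjusted p = 0.277).

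Its paralogue Cox7a2, found in most tissues, had 129, 129 and 148 CPM in liver BM, 242, 189 and 178 CPM in SI-coded BM and 233, 295 and 281 CPM in LI-coded BM. Counts per kilobase of exon allow the isoforms to be set side by side. On that scale Cox7a1 made up 1.90% ± 1.04 (SD, n = 3) of the sum of both in liver BM, 21.2% ± 0.215 in SI-coded BM and 20.7% ± 1.42 in LI-coded BM. In BMT the shares were 2.10% ± 0.810, 19.1% ± 5.69 and 16.2% ± 4.51.

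Subunit 6b showed the reverse order. Cox6b2, known as the testis isoform, had 26.7, 21.7 and 31.4 CPM in liver BM, 8.00, 2.04 and 2.86 CPM in SI-coded BM and 2.44, 1.71 and 1.91 CPM in LI-coded BM. The log2 difference was 3.52 (SE 0.40, adjusted p = 1.5e-06 by edgeR) for liver over SI-coded and 4.46 (SE 0.42, adjusted p = 1.89e-07) for liver over LI-coded libraries. Per kilobase, Cox6b2 made up 7.29% ± 1.1 (SD, n = 3) of the sum with Cox6b1 in liver BM and 4.54% ± 2.14 in liver BMT, with 12.1, 15.3 and 6.60 CPM of Cox6b2 in the BMT livers. That liver change was not called (log2 fold change -1.03, SE 0.30, adjusted p = 0.0683 by edgeR). In the gut fractions the share was at most 1.17% in any library.

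**Figure D3:**
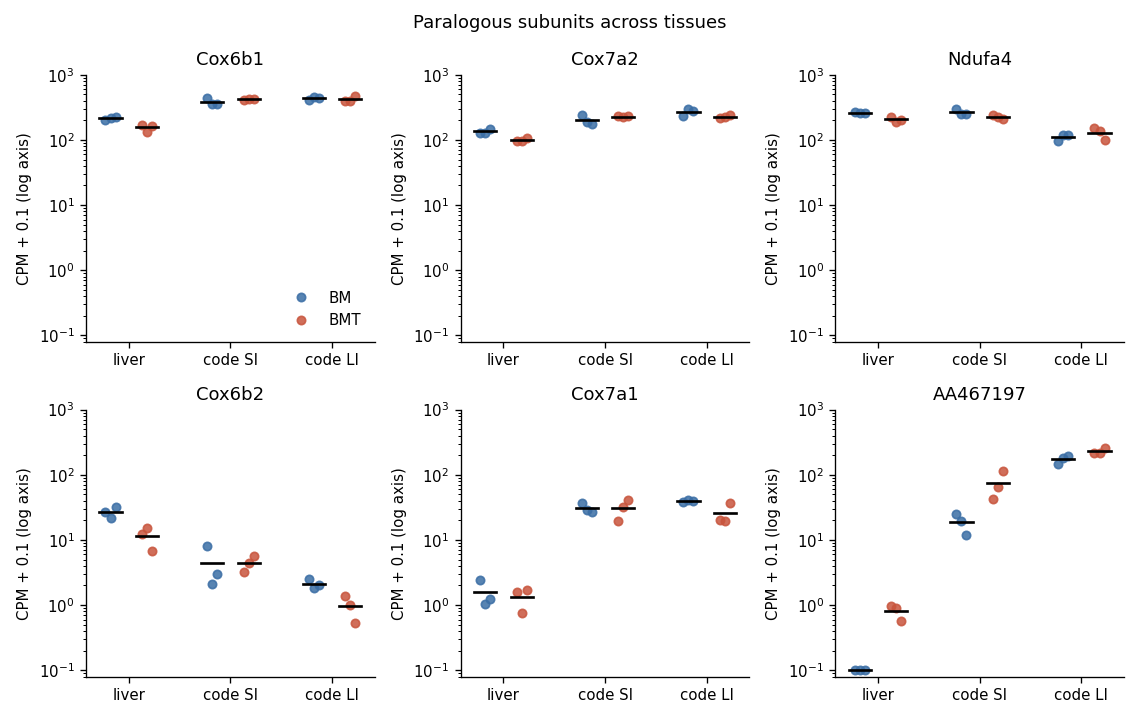
Level in each library, as CPM + 0.1 on a log axis, of Cox6b1, Cox7a2 and Ndufa4 (top) and of their paralogues Cox6b2, Cox7a1 and AA467197 (bottom), by tissue, with the group mean as a line. Cox7a1 is lowest in liver, Cox6b2 is highest in liver BM, and AA467197 is at 0 CPM in the liver BM libraries.

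The stretches upstream of the 2 isoform pairs are shown because the tissue contrasts of Cox7a1 and Cox6b2 are described above. Each is the 250 bases before the RefSeq transcription start in GRCm38.p6, written 5′ to 3′ on the gene's strand, with matches to the searched motifs in capitals. Cox7a1 lies at chr7:30183921-30184170, plus strand, Cox7a2 at chr9:79759854-79760103, minus strand, Cox6b1 at chr7:30626115-30626364, minus strand, and Cox6b2 at chr7:4753095-4753344, minus strand.
Cox7a1: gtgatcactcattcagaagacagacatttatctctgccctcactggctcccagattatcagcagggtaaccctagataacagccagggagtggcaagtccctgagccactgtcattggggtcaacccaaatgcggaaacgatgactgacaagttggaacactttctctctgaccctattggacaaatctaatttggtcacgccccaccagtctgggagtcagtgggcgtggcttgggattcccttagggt
Cox7a2: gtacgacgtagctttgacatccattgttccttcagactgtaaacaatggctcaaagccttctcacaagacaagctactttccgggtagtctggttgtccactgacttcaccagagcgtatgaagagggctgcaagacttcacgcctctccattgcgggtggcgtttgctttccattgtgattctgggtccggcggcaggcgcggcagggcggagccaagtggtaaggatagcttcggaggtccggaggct
Cox6b1: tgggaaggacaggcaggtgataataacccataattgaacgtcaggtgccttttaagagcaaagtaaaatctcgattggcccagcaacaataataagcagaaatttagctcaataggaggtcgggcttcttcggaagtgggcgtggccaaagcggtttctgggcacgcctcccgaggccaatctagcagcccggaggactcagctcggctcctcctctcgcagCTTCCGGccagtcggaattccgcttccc
Cox6b2: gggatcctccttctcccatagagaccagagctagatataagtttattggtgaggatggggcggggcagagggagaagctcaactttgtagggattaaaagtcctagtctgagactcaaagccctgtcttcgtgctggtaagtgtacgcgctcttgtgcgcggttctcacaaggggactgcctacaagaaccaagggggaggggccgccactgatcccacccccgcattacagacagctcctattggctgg
The common isoforms hold 14 CpG pairs each, and Cox7a1 holds 4 and Cox6b2 8. Cox6b1 has a match to the ETS letters at -28 from the start.

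Promoters were searched on both strands for NRF1 (GCGCATGCG), ETS (CCGGAAG), YY1 (AAGATGGC) and the estrogen-related receptors (ERR, AAGGTCA), factors known as regulators of nuclear-encoded mitochondrial genes. RefSeq promoters were matched for 68 of the 84 members and for 16920 protein-coding genes in all. NRF1 letters stood in 8.82% of member promoters (6 of 68) and in 2.05% of all, and ETS letters in 16.2% and 9.44%. ERR letters stood in 7.35% and 3.46%, and YY1 letters in 0 member promoters against 1.5% of all. The promoters of all genes were counted whether or not the gene was expressed. Member promoters held a median of 14 CpG pairs and all promoters 10, and the NRF1 and ETS letters contain CG. The part of this difference in the shares was not tested. At least 1 of the 4 was found in 27.9% of member promoters and 15.5% of all. A match here describes the letters in the window and is not a site of binding, and no match says only that these letters are not in the window.

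Upstream stretches of 3 genes that rose in the SI-coded libraries follow, since their promoters were matched and the genes differ in the motifs they hold. Ndufa11 (chr17:56717512-56717761, plus strand) holds the NRF1 letters on both strands, overlapping at -59 and -60. Ndufb6 (chr4:40279422-40279671, minus strand) holds ETS letters at -232. Atp5f1 (chr3:105959264-105959513, minus strand) holds none of the 4 but holds TCTCGCGA, a motif that was added after its sequence had been seen, in 3 places, with some matches on both strands. The RefSeq start used for Atp5f1 lies inside the gene as the GENCODE annotation draws it. TCTCGCGA was in 3 of 68 member promoters (4.41%), Atp5f1 among them, and in 1.37% of all. Because Atp5f1 prompted the motif, these shares are not an independent comparison.
Ndufa11: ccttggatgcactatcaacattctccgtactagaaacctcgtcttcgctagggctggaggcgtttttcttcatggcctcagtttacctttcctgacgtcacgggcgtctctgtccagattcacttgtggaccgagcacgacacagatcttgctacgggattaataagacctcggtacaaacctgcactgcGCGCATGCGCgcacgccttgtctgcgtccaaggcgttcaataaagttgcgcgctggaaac
Ndufb6: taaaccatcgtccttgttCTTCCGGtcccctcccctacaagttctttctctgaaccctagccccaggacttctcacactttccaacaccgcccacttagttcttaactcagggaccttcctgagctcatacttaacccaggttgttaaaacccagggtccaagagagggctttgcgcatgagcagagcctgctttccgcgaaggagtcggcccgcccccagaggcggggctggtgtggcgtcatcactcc
Atp5f1: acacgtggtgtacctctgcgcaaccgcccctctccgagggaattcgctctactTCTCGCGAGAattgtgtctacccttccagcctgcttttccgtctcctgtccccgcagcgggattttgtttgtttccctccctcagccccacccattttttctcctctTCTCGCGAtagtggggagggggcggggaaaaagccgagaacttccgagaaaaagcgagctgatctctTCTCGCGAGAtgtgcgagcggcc

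Between the gut fractions of the BM group 1 member was higher in the SI-coded libraries, where 13.1% of genes were, and 19 were lower, where 14% were. The members' median difference was -0.33. Cox5a, which carries no haem but sits beside the catalytic core of complex IV, had 134, 108 and 106 CPM in SI-coded BM and 180, 200 and 180 CPM in LI-coded BM (log2 difference -0.71, SE 0.15, adjusted p = 0.00265 by edgeR). Uqcrfs1, the Rieske iron-sulphur protein of complex III, had 264, 217 and 217 CPM and 350, 371 and 360 CPM (-0.66, SE 0.15, adjusted p = 0.00451). The lower calls lay in complex I (11), complex III (2) and complex IV (6), and included Cox6a1 (-0.70, SE 0.19), Cox5b (-0.67, SE 0.16), Cox8a (-0.60, SE 0.16) and Uqcr10 (-0.60, SE 0.16). Of the lower calls, 0 were made without the second BM mouse, and leaving out one mouse at a time gave 0 to 25. Over all genes the lower calls were 1535 of 17669 without the second BM mouse, against 2421 of 17275 with every mouse.

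The member that was higher in the SI-coded libraries was Ndufa4. It had 300, 250 and 246 CPM in SI-coded BM, 94.7, 117 and 119 CPM in LI-coded BM and 265, 261 and 261 CPM in liver BM. The log2 difference of SI-coded over LI-coded was 1.24 (SE 0.17, adjusted p = 4.72e-05 by edgeR). It was called in all 13 alternatives, which include the weak checks without a BMT mouse. Liver over LI-coded gave 1.96 (SE 0.17, adjusted p = 6.68e-08), also in all 13. The paralogue of Ndufa4 that the symbols leave out, AA467197, ran the other way: it had 144, 180 and 192 CPM in LI-coded BM, 25.3, 19.2 and 11.9 CPM in SI-coded BM and 0 counts in the BM livers.

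Per kilobase, Ndufa4 made up 35.9% ± 0.686 (SD, n = 3) of the sum of both paralogues in LI-coded BM, 92.6% ± 1.88 in SI-coded BM and all of it in liver BM. With T cells the SI-coded share was 73.4% ± 10.8. AA467197 rose there from the values above to 42.1, 64.6 and 114 CPM (log2 fold change 2.02, SE 0.38, adjusted p = 0.00303 by edgeR). In the BMT livers AA467197 had 0.856, 0.810 and 0.472 CPM, at least 15.8-fold higher than 3 counts over the whole liver BM group would give. In the LI-coded BMT libraries it had 214, 214 and 257 CPM (0.42, SE 0.16, adjusted p = 0.0583). Ndufa4 itself was not called in any tissue.

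Against liver the direction of most members turned on the scaling. For liver over SI-coded BM, 43 members were called higher, where 35.3% of genes were, and 1 lower, where 33.7% were, with a members' median of 0.44. With library totals only, 5 were higher and 37 lower, against 3795 and 9085 of all 17275 genes, and the median of all genes moved to -0.72. The members' median lay 0.42 to 0.43 above that of all genes under both scalings, a gap that the scaling could hardly alter. For liver over LI-coded BM, 23 were higher, where 33.9% of genes were, and 8 lower, where 33.8% were. With library totals only 3 were higher and 55 lower, against 3741 and 9170 of all genes.

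Members whose liver excess was called under every alternative included Uqcrq over SI-coded libraries, at 1.54 (SE 0.23), with 258, 243 and 272 CPM in liver BM. Ndufa7 gave 1.28 (SE 0.16) and Ndufa2 1.25 (SE 0.16) in the same contrast, both accessory subunits of complex I. Uqcrb, of complex III, gave 1.01 (SE 0.16), and was not called with library totals in place of TMM. Against the LI-coded libraries 7 of the 8 lower members were of complex IV, among them Cox4i1 (-0.66, SE 0.19), Cox5b (-0.61, SE 0.16), Cox8a (-0.56, SE 0.16) and Cox5a (-0.56, SE 0.15). All 37 complex I members had a liver over SI-coded value above 0 with TMM scaling. Ndufa4l2, a relative of Ndufa4 known to respond to hypoxia, had 0.588, 0.636 and 0.886 CPM in liver BM and at most 0.0905 CPM in any gut BM library, a level of 1 or 2 reads.

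Mitochondrial DNA encodes 13 further subunits, which pair with the members in complexes I, III, IV and V. Their summed level was 46697 ± 5682 CPM in liver BM and 28118 ± 1797 CPM in liver BMT (SD, n = 3). In the SI-coded libraries it was 77312 ± 7419 and 51946 ± 5678 CPM, and in the LI-coded libraries 99071 ± 4484 and 66235 ± 5657 CPM. In none of the 3 did the groups overlap. By gene, 3 of 13 were called lower in liver, where 3.35% of all genes were, 4 in the SI-coded libraries, where 11.8% were, and 9 in the LI-coded libraries, where 21% were. By edgeR 0 were called higher in any tissue, and in each gut fraction 1 of the 13 had a fold change above 0.

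The ratio of mitochondrially encoded to nuclear-encoded counts was lower in BMT. In the SI-coded libraries it was 4.13, 4.67 and 3.90 in the BM and 2.66, 2.14 and 2.74 in the BMT libraries, with no overlap. In the LI-coded libraries it was 4.42 ± 0.256 in BM and 3.21 ± 0.589 in BMT, also without overlap, and in liver 3.57 ± 0.506 and 2.9 ± 0.135, with overlap. mt-Co1, the catalytic subunit of complex IV, made up most of the sum in the LI-coded libraries, with 60444, 63284 and 69122 CPM in LI-coded BM and 44785, 43660 and 38054 CPM in LI-coded BMT (log2 fold change -0.60, SE 0.13, adjusted p = 0.00464 by edgeR). Its complex IV partners mt-Co2 and mt-Co3, and mt-Atp6 of complex V, were listed far lower. They had 180, 230 and 128 CPM in the first LI-coded BM library. The levels of these 3 genes are uncertain where near-identical nuclear copies share reads.

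**Figure D4:**
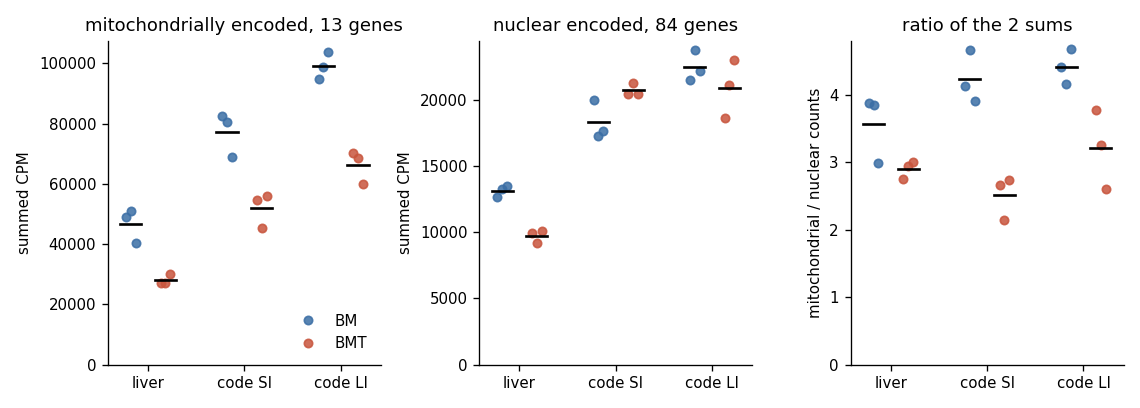
Summed CPM of the 13 mitochondrially encoded genes (left) and of the 84 nuclear-encoded genes (middle), and the ratio of these sums (right), with each library a point and the group mean a line. The mitochondrial sum is lower in BMT in all 3 tissues, and the nuclear sum is lower without overlap in liver only.

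Other genes of the pathway were counted list by list. Among the genes that assemble complexes II to V, 12 of 32 tested were called lower in the LI-coded libraries and 0 higher, with a median of -0.32, and 3 higher and 2 lower in the SI-coded libraries. The shares of all genes called, against which this and the following counts stand, were 20.4% higher and 21% lower in the LI-coded, 11.6% and 11.8% in the SI-coded, and 7.46% and 3.35% in the liver libraries. Surf1, which helps build complex IV, fell from 84.2, 96.1 and 88.2 CPM to 54.8, 48.5 and 53.4 CPM in the LI-coded libraries (log2 fold change -0.77, SE 0.13, adjusted p = 0.000926 by edgeR). For complex I assembly 0 of 15 were higher and 2 lower in liver, among them Ndufaf1 (-0.57, SE 0.13).

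Genes that feed electrons to the chain were described from the same fits. Of the citrate cycle and pyruvate dehydrogenase genes, 7 of 16 were called higher and 0 lower in the SI-coded libraries, with a median of 0.43. Cs, citrate synthase, rose there from 695, 672 and 762 CPM to 1460, 1344 and 1402 CPM (1.03, SE 0.16, adjusted p = 0.000828 by edgeR). In the LI-coded libraries Cs rose as well (0.59, SE 0.15), whereas 5 of the 16 were lower, with Suclg2, of succinyl-CoA ligase, at -1.18 (SE 0.11). Of the glycolysis genes 15 of 19 were higher and 0 lower in the SI-coded, and 12 of 19 higher and 4 lower in the LI-coded libraries. In liver 1 of 19 was called higher and 2 lower. Of 16 regulators of mitochondrial biogenesis tested in the LI-coded libraries, 4 were called higher and 4 lower, both near the shares of all genes. Among the lower was Ppargc1a, a coactivator of mitochondrial genes (-1.04, SE 0.21). Of these regulators 0 were called in liver or the SI-coded libraries by edgeR (3 and 4 had an unadjusted p under 0.05). Of 77 mitochondrial ribosome genes, 8 were called lower and 0 higher in liver, 4 higher and 1 lower in the SI-coded and 5 higher and 1 lower in the LI-coded libraries, with medians of -0.32, 0.18 and 0.15.

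Among the electron carriers, Cycs, which encodes cytochrome c, rose from 196, 166 and 178 CPM to 354, 291 and 368 CPM in the SI-coded libraries (log2 fold change 0.96, SE 0.17, adjusted p = 0.00193 by edgeR). It rose from 209, 220 and 261 CPM to 343, 339 and 277 CPM in the LI-coded libraries (0.48, SE 0.13). Coq8a, a kinase-like protein of ubiquinone synthesis, fell from 44.7, 46.2 and 41.8 CPM to 2.50, 2.38 and 1.81 CPM in the LI-coded libraries (-4.30, SE 0.17, adjusted p = 8.19e-08). In the SI-coded libraries it fell from 79.3, 65.9 and 56 CPM to 10.9, 14.4 and 13 CPM (-2.35, SE 0.20). The liver values were 364, 270 and 223 CPM in BM and 143, 97.8 and 59.8 CPM in BMT (-1.32, SE 0.37, adjusted p = 0.0605). Coq8a and the other genes outside the 84 in this account were chosen after their values were seen.

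**Figure D5:**
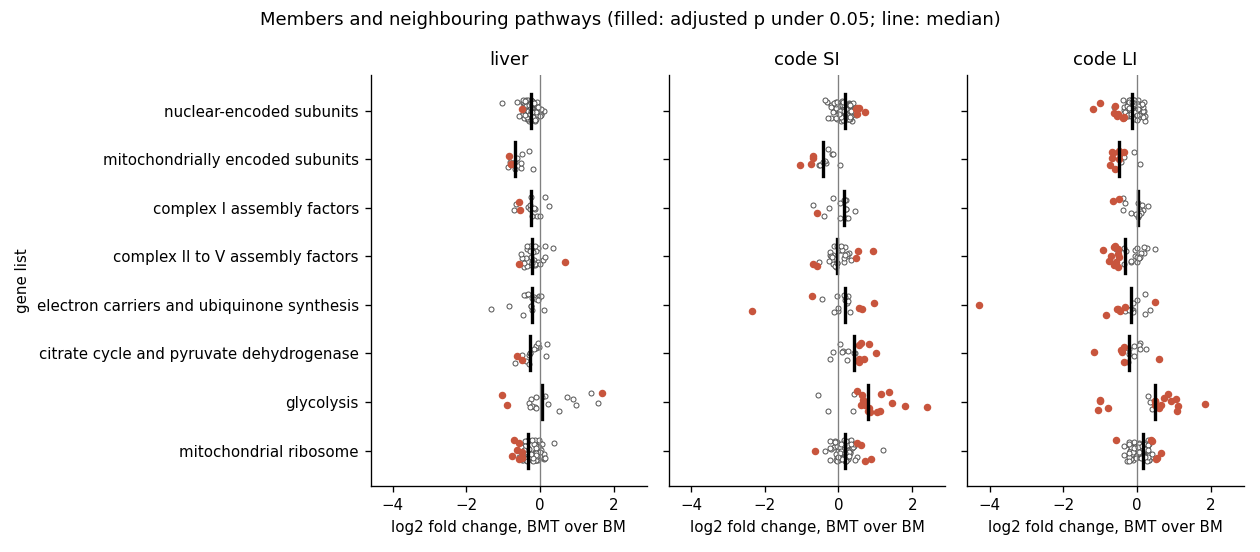
Log2 fold change (BMT over BM) of each tested gene of the lists, with filled points for called genes and a line at the median, in liver, SI-coded and LI-coded libraries. The glycolysis median is 0.81 in the SI-coded and 0.50 in the LI-coded libraries, against 0.17 and -0.12 for the nuclear-encoded subunits.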

How the data were processed

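RNA of 18 libraries was sequenced after polyA selection with a stranded kit, and the deposited table holds raw counts per gene. Per the submitters' processing notes, the tools were FastQC 0.11.9, STAR 2.7.0e and featureCounts 1.6.3 with genome build GRCm38.p5. The annotation release and strand setting of the counting are not stated. Gene names came from GENCODE M21, which matched 53274 of 53379 gene IDs. Of the names that fit the symbols, 12 were not protein coding and were left out. All count columns were used (0 were left out).

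CPM values are counts per library total. Library totals ranged from 18845483 to 25610937, and the number of libraries per group (3) limits the precision. Counts were tested with edgeR 4.0.16 in R 4.3.3 (filterByExpr, TMM, quasi-likelihood test, two-sided, Benjamini-Hochberg adjustment over all genes, threshold 0.05). The 3 tissues were fitted apart for BMT against BM. Differences between tissues came from 1 fit of 18 libraries with the mouse number as a term. The pairing comes from the mouse numbers in the sample descriptions: deviations of the same mouse in different tissues correlated at -0.03 to 0.18 over 18 pairs. The scripts were tested on simulated data.

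Alternatives were DESeq2 size factors, library totals, no filter or a filter of 1 CPM in 3 libraries, DESeq2 1.42.0's Wald test, leaving out each library or mouse, a replicate block, the mitochondrial chromosome left out, 1 sequencing lane only, and 1 fit of all libraries. In each gut fraction, lane L002 only was the same fit as leaving out its only lane 1 library. The count of alternatives there holds that fit under both names. Leaving out libraries from the summed levels was chosen after seeing the data. Genes named whatever their result were the core subunits and those with tissue isoforms, with per complex the 2 called members of smallest p in each direction, and the 5 largest rises and falls above a mean of 5 CPM. Some genes of the lists are not reported here and were left out of their sums and counts. The members and lists were chosen with earlier results of these data known.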

Additional observations from a re-analysis of the deposited data

Results flagged for a closer look

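By the test of the difference itself, 11 of 79 members (13.9%) were called as having a lower BMT effect in liver than in the SI-coded libraries. Of all genes 6.32% were. Without the second BM mouse 0 members were called, against 418 lower calls over all 17669 genes. Without the second BMT mouse 1 was, against 803 of all 17611 genes. With every mouse the lower calls over all 17275 genes were 1091. The log2 differences (liver effect minus SI-coded effect) were -0.93 for Ndufb6, -0.91 for Atp5f1, -0.85 for Uqcrc2, -0.81 for Ndufs1, -0.79 for Ndufs8, -0.78 for Ndufa6, -0.78 for Ndufv2, -0.77 for Ndufb8, -0.76 for Cox5a, -0.65 for Ndufs4 and -0.61 for Ndufs5. Between liver and the LI-coded libraries the effect on Atp5s differed by 0.82, in a contrast where 10.6% of all genes were called higher. That call was lost whichever mouse was left out.

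Genes whose names fit the symbols but which are not annotated as protein coding also had counts above the limit that 0 counts allow. The mean over the 18 libraries was 53.6 CPM for Ndufb1-ps (32.2 to 74.9 CPM), 3.22 CPM for Atp5l2-ps, 2.64 CPM for Cox6c2, 1.47 CPM for Uqcrh-ps1, 0.735 CPM for Atp5l-ps2, 0.577 CPM for Ndufs6b, 0.453 CPM for Atp5l-ps1 and 0.285 CPM for Uqcrh-ps2. Reads from near-identical copies may be split between such genes and the members.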

How the results depend on the processing

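In liver, the count of members called lower (1) was 24 with library totals only, 8 with DESeq2's Wald test, 3 in 1 fit of all libraries, and 0 with the 1 CPM filter, on lane L002 only and with the replicate block. Leaving out 1 library gave 0 to 10. Over all genes the lower calls were 473 of 14134, 1183 with library totals only and 767 with DESeq2's Wald test. Without the third BM liver, which gave the 10, they were 1061 of 14519. In the SI-coded libraries the 5 higher calls became 2 with library totals only, 2 with no filter, 2 with the replicate block, 3 on lane L002 only and 8 in 1 fit of all libraries, with 0 to 5 on leaving out 1 library. Over all genes the higher calls were 1700 of 14621, 1473 with library totals only and 2158 of 17275 in 1 fit of all libraries. Without the second BM library, which gave the 0, they were 1030 of 15031. In the LI-coded libraries the 8 lower calls became 21 on lane L002 only (with 1 higher) and 5 in 1 fit of all libraries, and leaving out 1 library gave 4 to 21 lower and 0 to 1 higher. On lane L002 only, which is the same fit as leaving out the third BMT library, 3553 of all 15453 genes were called lower and 3667 higher. The block used the title numbers, whose samples correlated at -0.12 to 0.27 over 9 pairs and share only a number.

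For liver minus SI-coded effects, the 11 lower calls became 24 with library totals only, and 0 to 11 on leaving out 1 mouse. Over all 17275 genes the lower calls were 1091, and 1407 with library totals only. Without the second BM mouse, which gave the 0, they were 418 of 17669. For liver minus LI-coded effects, the 1 higher call became 2 with no replicate block (mouse term left out), 0 with library totals only or no filter, 2 with the 1 CPM filter or DESeq2's Wald test, and 0 to 2 on leaving out 1 mouse, and library totals only gave 3 lower. Over all genes the higher calls for liver minus LI-coded effects were 1837, and 1064 to 1887 on leaving out 1 mouse. For SI-coded minus LI-coded effects, no filter gave 1 higher, against 995 of all 31434 genes.

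For BM levels, SI-coded over LI-coded had 2 higher with no filter, and 1 to 2 higher and 0 to 25 lower on leaving out 1 mouse. Over all genes 2311 of 31434 were higher with no filter. Leaving out 1 mouse gave 1294 to 2426 higher and 1535 to 2571 lower over all genes, against 2268 and 2421 with every mouse. Liver over SI-coded had 5 higher and 37 lower with library totals only, and 26 to 45 higher and 1 to 5 lower on leaving out 1 mouse. Over all genes 3795 were higher and 9085 lower with library totals only. Leaving out 1 mouse gave 5320 to 6146 higher and 4986 to 6331 lower over all genes, against 6098 and 5821 with every mouse. Liver over LI-coded had 3 higher and 55 lower with library totals only, 15 higher with no filter, and 15 to 23 higher and 4 to 16 lower on leaving out 1 mouse. Over all genes 3741 were higher and 9170 lower with library totals only, and 5947 of 31434 were higher with no filter. Leaving out 1 mouse gave 5184 to 5931 higher and 5016 to 6335 lower over all genes, against 5855 and 5834 with every mouse. Signs turned with library totals only for liver over SI-coded in Atp5f1 (-0.17), Sdhb (-0.17), Atp5j (-0.010) and Cox7b (-0.27), and for liver over LI-coded in Atp5e (-0.22), Uqcrb (-0.15), Atp5j (-0.24) and Ndufa7 (-0.050). The share of called genes that were higher moved from 51.2% to 29.5% for liver over SI-coded and from 50.1% to 29.0% for liver over LI-coded. Scaling by TMM over all 18 libraries gave 0.857 for the ratio of summed liver levels. Without TMM, leaving out 1 library gave ratios of 0.727 to 0.761 in liver, 1.1 to 1.19 in SI-coded and 0.884 to 0.982 in LI-coded libraries. The cause of these changes was not tested.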

Other observations

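The genes given here were chosen after their values were seen, and the values are log2 fold changes of BMT over BM for genes called by edgeR's quasi-likelihood test. Among glycolysis genes, Pkm, a pyruvate kinase, rose in the SI-coded (1.80, SE 0.20) and LI-coded libraries (1.08, SE 0.14), as did Gapdh (1.47, SE 0.18, and 1.11, SE 0.13) and Slc16a3, a lactate transporter (2.40, SE 0.34, and 1.85, SE 0.21). In liver Pfkp, a phosphofructokinase, rose (1.68, SE 0.41), and Pklr, the liver pyruvate kinase, fell by 1.03 (SE 0.23).

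Assembly factors of the chain were called in both directions. Coa6, a complex IV assembly factor, rose in liver (0.68, SE 0.16), and Cox11, which inserts copper into complex IV, rose in the SI-coded libraries (0.93, SE 0.25). In the LI-coded libraries Sdhaf3, of complex II assembly, gave -0.93 (SE 0.22), Cmc1 -0.69 (SE 0.15), Atpaf1, of ATP synthase assembly, -0.64 (SE 0.16), and Atpif1, the inhibitor of ATP synthase, -0.66 (SE 0.13). Higd2a fell in both gut fractions (-0.57, SE 0.17, SI-coded, and -0.75, SE 0.15, LI-coded).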
